A study of Mus musculus with 4 samples.

Results

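The calnexin cycle and the quality control of glycoproteins were described here by 10 genes, Mogs, Ganab, Canx, Calr, Uggt1, Edem1, Edem2, Edem3, Os9 and Erlec1, in a list of DNA intervals bound by XBP1s. The members were the rows of the deposited peak table whose nearest gene is one of the 10. Of 4890 peaks, 11 belonged to members, and 9 of the 10 genes had at least 1. Erlec1 had no row, and the peak of its neighbour Asb3 was examined in its place. XBP1s is the spliced, active form of the transcription factor XBP1, made when the kinase and nuclease IRE1 senses stress in the endoplasmic reticulum (ER).

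The assay was chromatin immunoprecipitation followed by sequencing (ChIP-seq) in natural killer (NK) cells isolated from mouse spleen. The 4 libraries were 2 XBP1s immunoprecipitations and 2 inputs, the inputs being chromatin set aside before the antibody was added. Both groups came from strain C57BL/6, from mice that the series calls Il15TgXbp1f/f, and the cells of both had been kept with IL-15 at 50 ng/ml for 1 h. An Il15 transgene and floxed Xbp1 alleles were therefore common to all libraries. No Cre is named for these mice, and cells without IL-15 or without XBP1 were not analysed here. Age, number of animals, pooling and the promoter of the transgene are not given in the sources used here. What was deposited is 1 set of intervals, with no value per library and a score of 0 throughout. No value therefore has a replicate error, depths are unknown, and presence, width and position are all that can be described. Of 8 NK cell markers Prf1, Gzmb and Il2rb had a peak within 5000 bp of the transcription start site (TSS). So did 0 of 4 B cell markers, 1 of 5 T cell markers (Cd3d) and 1 of 5 myeloid markers (Cd68). By the same rule 15.9% of all protein-coding genes had a peak, and with lists this short the counts do not identify the cells. Ncr1, Klrb1c, Klrk1, Eomes and Tbx21 had none, and a peak list does not measure expression.

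Most proteins that enter the ER receive a glucose-tipped sugar tree on asparagine. Glucosidases trim the glucoses, and the lectin chaperones calnexin and calreticulin hold a protein that keeps the last of them. A folding sensor puts a glucose back on a protein that is still misfolded, which returns it to the chaperones. A protein that stays too long loses mannoses, and lectins that read the trimmed tree hand it to a ubiquitin ligase for ER-associated degradation. NK cells make many glycoproteins, among them their receptors and granule contents. Genes of this route are known targets of the unfolded protein response, whose factors bind the ER stress response element (ERSE, a CCAAT box and a CCACG box held a fixed distance apart) and the unfolded protein response element (UPRE, with the core TGACGTG).

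Promoter sequences show part of what lies under these peaks. Stretches are shown for the 5 members that hold a whole ERSE, the UPRE core or the related GCCACGT, and for Edem1, which holds only separate parts of an ERSE. They come from RefSeq on GRCm38.p6, the assembly of mm10, and read 5′ to 3′ along the gene. Position -1 is the base before the RefSeq start and the start itself is 1. Capitals mark TGACGTG in Mogs, GCCACGT in Os9 and, on the opposite strand, in Ganab, the ERSE in Canx and, on the opposite strand, in Calr, and CCAAT and CCACG of either strand in Edem1. Stretches run from -200 to -1, except that of Ganab (-170 to 29) and that of Edem1 (-250 to -51). Those of Ganab and Os9 begin outside the peak, which starts 130 and 193 bp before the start.
Mogs (chr6:83115306-83115505, plus strand): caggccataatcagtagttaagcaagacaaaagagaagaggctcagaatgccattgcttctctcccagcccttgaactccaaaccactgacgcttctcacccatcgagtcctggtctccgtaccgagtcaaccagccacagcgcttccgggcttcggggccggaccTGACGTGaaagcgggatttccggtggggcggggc
Ganab (chr19:8897887-8898085, plus strand): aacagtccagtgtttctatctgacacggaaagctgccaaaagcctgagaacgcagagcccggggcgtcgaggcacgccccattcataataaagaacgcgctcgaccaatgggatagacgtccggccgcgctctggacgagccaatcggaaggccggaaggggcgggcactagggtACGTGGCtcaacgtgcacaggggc
Canx (chr11:50325674-50325873, minus strand): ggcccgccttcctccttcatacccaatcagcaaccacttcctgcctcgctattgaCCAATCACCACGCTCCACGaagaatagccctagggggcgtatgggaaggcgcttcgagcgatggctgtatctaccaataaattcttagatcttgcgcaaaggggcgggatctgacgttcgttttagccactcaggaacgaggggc
Calr (chr8:84846932-84847131, minus strand): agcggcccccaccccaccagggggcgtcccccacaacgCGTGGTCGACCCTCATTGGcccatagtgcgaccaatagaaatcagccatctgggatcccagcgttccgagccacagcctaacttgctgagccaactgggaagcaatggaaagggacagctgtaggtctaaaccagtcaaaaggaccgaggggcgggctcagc
Edem1 (chr6:108828391-108828590, plus strand): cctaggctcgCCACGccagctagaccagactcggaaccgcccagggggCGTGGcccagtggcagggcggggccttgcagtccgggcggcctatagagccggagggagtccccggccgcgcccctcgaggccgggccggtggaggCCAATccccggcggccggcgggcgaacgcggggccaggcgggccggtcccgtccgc
Os9 (chr10:127121161-127121360, minus strand): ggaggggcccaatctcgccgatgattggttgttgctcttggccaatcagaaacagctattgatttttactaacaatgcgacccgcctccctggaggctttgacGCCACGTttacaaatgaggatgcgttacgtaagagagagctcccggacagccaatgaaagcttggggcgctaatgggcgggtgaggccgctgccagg

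Within 5000 bp of the TSS, 9 of the 10 members had a peak (90%), while 15.9% of 21900 protein-coding genes did. Each of these 9 peaks covered the gene's own RefSeq start, and 62.7% of all 3806 peaks within this window of protein-coding genes covered the TSS of theirs. Counted without regard to which gene a peak was assigned to, all 9 members with a start in the promoter table had it under an interval, against 12.7% of 17492 protein-coding genes. Taking for each gene its widest peak, the median width was 1043 bp in the 9 members (range 427 to 2785 bp) and 410 bp over all 3487 genes with a peak (interquartile range 281 to 625 bp). Whether a listed interval is a whole peak or only the part that several calls share is not stated, and some are as narrow as 1 bp. Every width, rank and edge given here is therefore that of the listed interval, which may be less than the full peak, and width does not measure signal. Among the widest 10% of intervals, those of at least 857 bp, were peaks of 6 of the 10 members (60%) and of 1.93% of protein-coding genes. Among genes with a peak in this window, this was 6 of 9 members and 422 of 3487 genes. The members were proposed with results of these data known, so these shares are descriptions without a test.

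**Figure D1:**
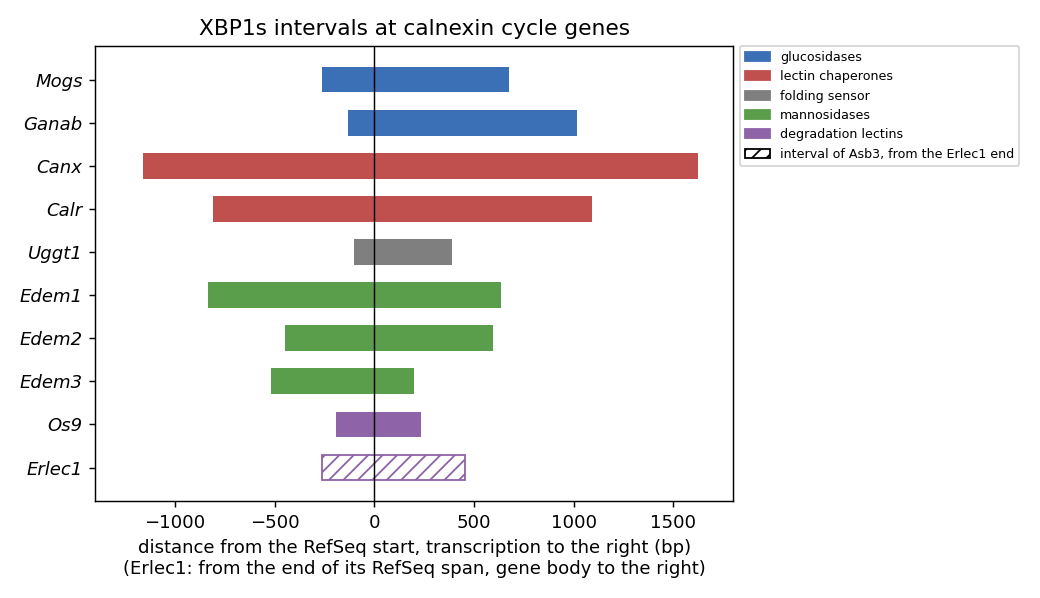
Position of the peak at each member, drawn from the RefSeq start (0) in the direction of transcription, in bp, with colours for the role of the protein. All 9 assigned peaks within 5000 bp of the TSS cross the start, from 427 bp wide at Os9 to 2785 bp at Canx. The intron peaks of Os9 are not drawn. The hatched bar is the 717 bp peak of Asb3, drawn from the end of the Erlec1 span.

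The glucosidases act at the entry to the cycle. Mogs encodes glucosidase I, which removes the outermost glucose. Its peak was 938 bp wide (chromosome 6, 83115244 to 83116181), reached from 262 bp before the start to 675 bp after it, and was annotated to exon 1 of 4. Ganab encodes the catalytic subunit of glucosidase II, which trims the inner glucoses. Its peak was 1145 bp wide (chromosome 19, 8897927 to 8899071) and lay furthest downstream of the 9, centred 442 bp past the start with 88.6% of its length in the gene. The authors' annotation gives it as a transcription termination site, which is that of the neighbour Ints5, ending 167 bp before the Ganab start. Both glucosidase genes were in the widest 10% of intervals and had widths above 90% (Mogs) and 94.6% (Ganab) of genes with a peak.

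The lectin chaperone genes had the widest peaks of the members. Canx encodes calnexin, which is anchored in the ER membrane. Its 2785 bp peak (chromosome 11, 50324050 to 50326834) ranked 3 in width among the 3487 genes and ran from 1161 bp before the start to 1623 bp after it. Calr encodes calreticulin, the soluble counterpart of calnexin, with the same sugar specificity. Its 1902 bp peak (chromosome 8, 84845839 to 84847740) ranked 30 and ran from 809 bp before to 1092 bp after the start, annotated to exon 1 of 9. In both genes somewhat more of the peak lay after the start than before it, 58.3% in Canx and 57.5% in Calr.

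Uggt1 encodes the folding sensor, the glucosyltransferase that re-glucosylates misfolded glycoproteins. Its peak was narrow beside those of the chaperones, at 493 bp (chromosome 1, 36243913 to 36244405), and was annotated to the 5′ untranslated region in exon 1 of 41. It began 103 bp before the start and ended 389 bp after it, and 61.1% of genes with a peak had a narrower one. The peaks of the 5 genes of the cycle itself thus spanned 493 to 2785 bp, with the sensor at the low end.

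Edem1, Edem2 and Edem3 encode mannosidase-related proteins that mark glycoproteins for degradation, and all 3 had a peak annotated as promoter. Over the members this was so of 4 of 9 peaks at the TSS (44.4%, the other being that of Os9), against 64.1% of all 3806 peaks within 5000 bp of protein-coding genes. Edem1 had the widest, 1470 bp (chromosome 6, 108827807 to 108829276, rank 79), from 834 bp before to 635 bp after the start. Edem2 followed with 1043 bp (chromosome 2, 155728882 to 155729924, rank 253), from 449 bp before to 593 bp after it. Edem3 had 717 bp (chromosome 1, 151754857 to 151755573, rank 642), from 517 bp before to 199 bp after it. Edem1 and Edem3 were the only 2 of the 9 members whose peak was centred upstream, by 100 and 159 bp. Of all 3806 peaks within 5000 bp of protein-coding genes, 60% were centred downstream, as were 7 of the 9 here (77.8%).

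Os9 and Erlec1 encode the lectins that recognise trimmed mannose chains and bring their cargo to the ligase complex of the ER membrane. Os9 had the narrowest TSS peak of the members, 427 bp (chromosome 10, 127120927 to 127121353), from 193 bp before to 233 bp after the start, a width above that of 52.5% of genes with a peak. It was also the only member with more than 1 peak, as were 12.7% of 3890 protein-coding genes with any assigned peak. The other 2 lay in intron 5 of 14, 223 bp wide at 9965 bp downstream (127111084 to 127111306) and 189 bp wide at 13389 bp downstream (127107677 to 127107865). The farther of these is annotated to an L1M2 element of the LINE class, as 26 of the 4890 peaks (0.532%) are to LINEs. Both intron peaks also lie within the span of the noncoding gene Gm40799 (127105866 to 127115007).

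Erlec1 had no assigned peak in the list. Its RefSeq span (chromosome 11, 30862794 to 30954386) ends 6 bp from the first base of Asb3 (30954392), which encodes a substrate adaptor of ubiquitin ligases. The 717 bp peak assigned to Asb3 (30953932 to 30954648) holds that end of Erlec1, with 455 bp inside the Erlec1 span and 262 bp beyond it. The strand of Erlec1 is not in the tables used here, so whether this end is its start was not checked. With that peak counted, each of the 10 members had an interval at an end of the gene. This is a looser rule than those above, and no share of all protein-coding genes is given for it. A shared interval cannot be assigned to either gene from its position.

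**Figure D2:**
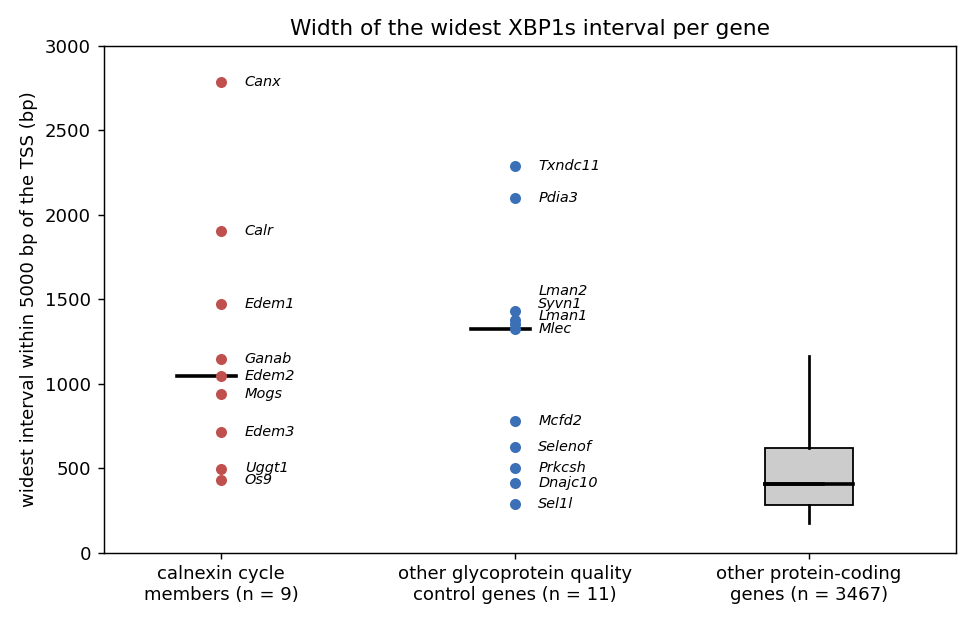
Width in bp of the widest peak within 5000 bp of the TSS, for 9 members and 11 other glycoprotein quality control genes (points, with black bars at the medians of 1043 and 1324 bp) and for 3467 other protein-coding genes (box for the quartiles, whiskers for the 5th and 95th percentiles). All 9 members lie above the median of the other genes, 409 bp.

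Other genes often begin or end beside the members. Of the 9 members with a start in the promoter table, 6 (66.7%) had an end of another RefSeq gene within 1000 bp of it, against 22.5% of 17492 protein-coding genes and 33.9% of 2893 other genes with a peak. In 5 of them that end lay inside the peak, and each belonged to a noncoding gene: Gm46280 at Canx (79 bp from the start), 1700122E12Rik at Calr (216 bp), Gm39625 at Uggt1 (7 bp), Gm35417 at Edem1 (365 bp) and 2810414N06Rik at Edem3 (356 bp). No share of other genes is given for an end inside the peak, and a wider peak has more room for one. In Ganab the neighbour was Ints5. The peaks of Mogs, Edem2 and Os9 had no such neighbour, and were 938, 1043 and 427 bp wide, beside 493 to 2785 bp in the other 6.

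The motifs under the peaks differed from member to member. Each was searched on both strands of the 300 bases from 250 before to 50 after the start, in 21263 promoters of protein-coding genes. The whole ERSE (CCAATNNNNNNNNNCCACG) was present in 2 of 9 members, Canx (-145 to -127) and Calr (-162 to -144, on the opposite strand), and in 0.141% of all these promoters (30). In Canx a further CCACG lies inside the spacer of the ERSE, at -138 to -134. Among the 9 members, the 2 with an ERSE in this window had the 2 widest peaks. This pairing did not hold among the other quality control genes described below. The variant ERSE-II (ATTGGNCCACG) was in 0 of 9 members and 0.0517% of promoters.

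The UPRE core TGACGTG was found in Mogs, at -34 to -28, and in 2.17% of promoters. The related GCCACGT was found in Os9 (-97 to -91) and Ganab (6 to 12, on the opposite strand, just past the start), and in 2.91% of promoters. Each of these matches to ERSE, TGACGTG or GCCACGT lay inside the gene's own peak. The peaks of Canx, Calr and Mogs hold the whole searched window, and those of Os9 and Ganab most of it. The members' matches to the shorter strings also lay inside, apart from an ACGT of Ganab at -240 to -237. Lying inside the peak therefore does not set the longer motifs apart. Shorter strings were common everywhere. CCACG, which is part of ERSE, ERSE-II and GCCACGT, was in 7 of 9 members and 37.4% of promoters. CCAAT, part of ERSE, was in 6 of 9 and 38.2%. ACGT, part of TGACGTG and GCCACGT, was in 7 of 9 and 33.0%.

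**Figure D3:**
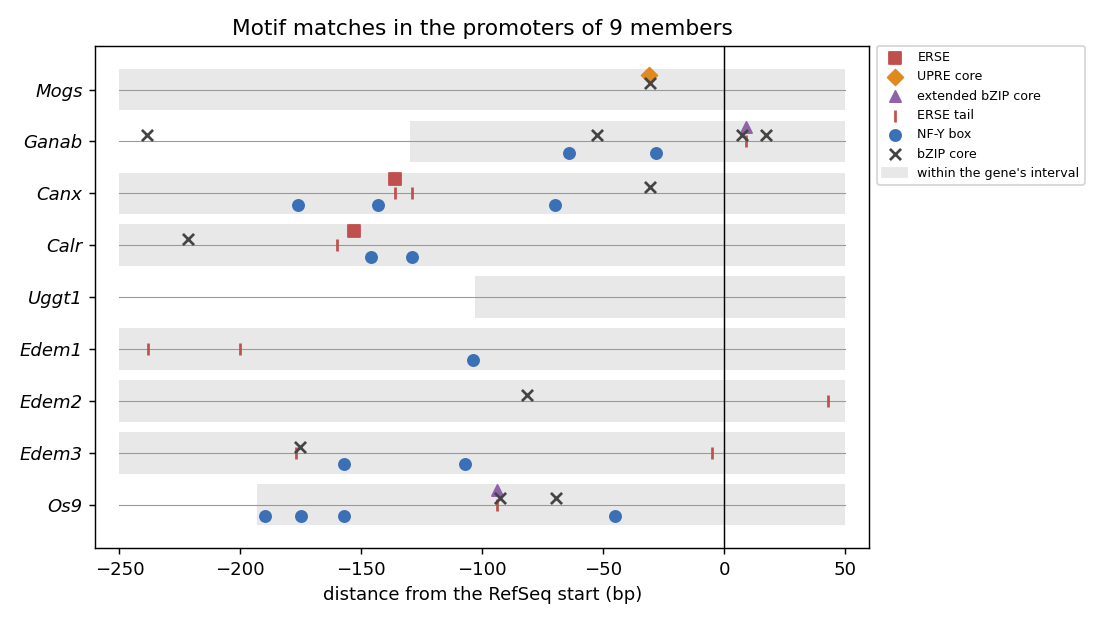
Positions of motif matches, in bp from the RefSeq start, in the promoters of the 9 members found in the promoter table. Grey shows the part covered by the gene's peak, squares the whole ERSE (Canx, Calr), the diamond the UPRE core (Mogs) and triangles GCCACGT, labelled extended bZIP core (Ganab, Os9). ERSE tail is CCACG, NF-Y box is CCAAT and bZIP core is ACGT; the promoter of Uggt1 has no match.

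Promoters whose start lies under an interval were also compared with the other promoters, members left out. GCCACGT was in 8.88% of 2456 such promoters and in 2.12% of 18798 others. For TGACGTG these shares were 6.43% and 1.61%. CCACG was in 59.6% against 34.5%, and ACGT in 57.3% against 29.8%. For CCAAT the shares were close, at 40.5% and 37.9%. The counts of 7, 7 and 6 of 9 members for the short strings are thus to be read against promoters under an interval as well as against all promoters. The median number of CG dinucleotides was 21 in the 9 members, 24 in the other promoters under an interval and 13 in all promoters. The part of base composition in the motif shares was not tested.

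**Figure D4:**
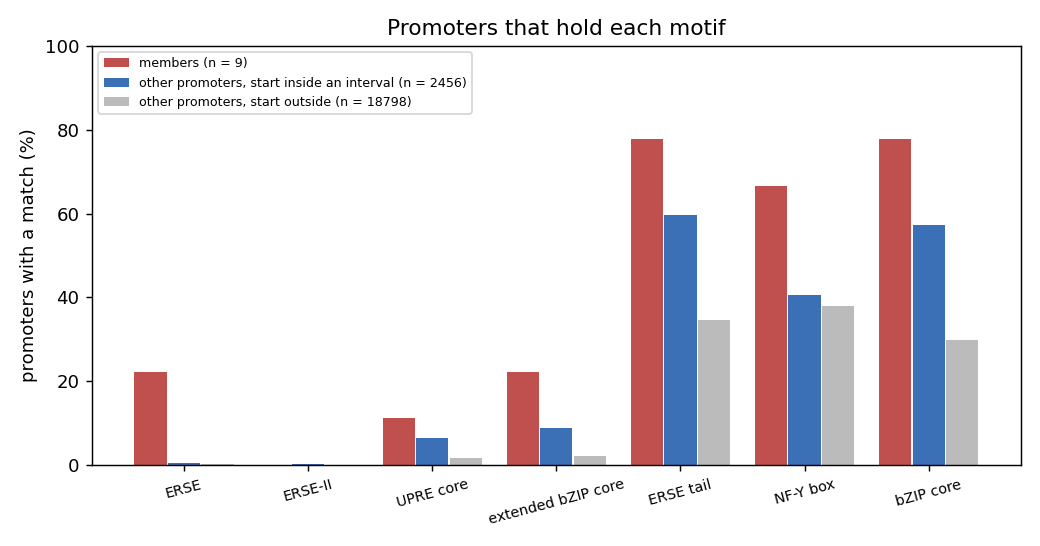
Share of promoters, in percent, that hold each motif: members (9), other promoters with the start inside an interval (2456) and other promoters with the start outside (18798). With 9 members, 1 promoter is a step of 11.1 percentage points. ERSE is in 2 members, and in 0.407% and 0.0958% of the other promoters.

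Uggt1, Edem1, Edem2 and Edem3 held neither a whole ERSE nor either 7-base motif in this window. The promoter of Uggt1 held none of the 7 motifs, and its peak covers only the part from 103 bp upstream onwards. Edem1 held CCACG at -240 to -236 and, on the opposite strand, at -202 to -198, with CCAAT at -106 to -102, as capitalised above. Its promoter was also the richest in G and C of the 9, at 76.0%, and had the most CG dinucleotides, 38. Edem2 held ACGT at -83 to -80 and, on the opposite strand, CCACG past the start (41 to 45). Its promoter had the lowest G and C content, 47.3%, with 10 CG dinucleotides. Edem3 held CCACG at -179 to -175, overlapped by ACGT at -177 to -174, and CCAAT at -159 to -155. On its opposite strand it held CCAAT at -109 to -105 and CCACG at -7 to -3. The number of CG dinucleotides was 35 in Canx, 38 in Edem1, 24 in Ganab and 29 in Mogs, whose peaks were 2785, 1470, 1145 and 938 bp wide. It was 21 in Edem3 (717 bp) and 17 in Uggt1 (493 bp) and Os9 (427 bp), while Calr also had 17 with 1902 bp, and Edem2 had 10 with 1043 bp. The part of base composition in the widths was not tested. All 9 peaks extend past the downstream end of this window, while those of Uggt1, Ganab and Os9 stop short of its upstream end. The rest of the peak sequence was not analysed here.

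The partners of these proteins were examined through 20 further genes of glycoprotein quality control. By the same window of 5000 bp, 11 of them had a peak (55%), again beside 15.9% of protein-coding genes. Their median width was 1324 bp (range 285 to 2292 bp). Among the 7 partners within the cycle, 4 had a peak. They were Pdia3, the disulfide isomerase that works with calnexin and calreticulin (2097 bp), Mlec, which encodes the glucose-binding lectin malectin (1324 bp), Selenof, a selenoprotein partner of the folding sensor (623 bp), and Prkcsh, the second subunit of glucosidase II (500 bp). The subunits of glucosidase II thus had peaks of 1145 bp (Ganab) and 500 bp (Prkcsh). Uggt2, a paralog of Uggt1, and Calr3 and Clgn, testis forms of the chaperones, had no peak.

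Of 5 partners in degradation within the ER, 4 had a peak. Txndc11, which encodes a thioredoxin-domain protein that works with EDEM proteins, had 2292 bp. Syvn1, the ubiquitin ligase that receives the cargo of Os9, had 1378 bp, and its promoter also held the whole ERSE. Txndc11 and Pdia3 (2097 bp) had wider peaks than Syvn1, but their promoters held no whole ERSE in the same window. Dnajc10, a reductase and co-chaperone, had 413 bp. Sel1l, the adaptor to which Os9 and Erlec1 bind, had 285 bp, below the median of genes with a peak, and this interval ended 18 bp before its start. Man1b1, an ER mannosidase, had no peak of its own, but its start lies inside a 395 bp peak assigned to the noncoding gene AA543186.

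All 3 cargo receptor genes of the list had a peak: Lman2 (1432 bp), Lman1 (1351 bp) and Mcfd2 (779 bp), which encode lectins and a cofactor that carry glycoproteins from the ER. A promoter of Txndc11 held TGACGTG, and that of Mcfd2 held GCCACGT. The 5 genes of disposal in the cytosol, Ngly1, Engase, Man2c1, Fbxo2 and Fbxo6, which strip sugars from proteins or recognise them after export from the ER, had 0 assigned peaks. The start of Ngly1, however, lies inside the 876 bp peak assigned to Oxsm. The share over all protein-coding genes was 15.9% by the 5000 bp rule, and 5 genes are too few to tell 0 from it. A difference between these 5 genes and the 3 cargo receptor genes was not tested. For Uggt2, Calr3, Clgn, Engase, Man2c1, Fbxo2 and Fbxo6, no interval of any gene lay within 1000 bp of the gene.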

How the data were processed

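Chromatin of 2 XBP1s immunoprecipitations and 2 inputs was fixed in 1% formaldehyde for 10 min, and 2% was kept as input, per the labels' protocols. The tools were MACS2 2.2.7.1, HOMER 4.11 and 4.11.1, Bowtie2 2.4.5, Trim Galore 0.6.7 and also FastQC 0.11.9, per the submitters' processing notes, which give GRCm38 and mm10 as builds. Per the file header, 1 set of intervals, named common, was annotated on mm10. The deposited score is 0 in every row. How the libraries were combined, and the calling threshold, are not given in the sources used here. Nothing says whether replicates were separate animals.

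Width is end minus start plus 1, and positions are 1-based. Nearest gene, annotation and distance (peak centre to TSS) are the authors'. For 9 of 9 members, their TSS was within 1 bp of the RefSeq start. Of the peaks, 4885 matched a RefSeq gene number. Promoters were in the table for 9 of 10 members, and for 18 of 20 partners. All 10 members are named, with partners and any gene at a member's start. Searches were tested on simulated data. Members and lists were chosen with earlier results of these data known. Planned protein comparisons were not run. Python 3.11.15, pandas 2.3.3, NumPy 2.4.6 and matplotlib 3.10.9 were used.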

Additional observations from a re-analysis of the deposited data

How the results depend on the processing

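The list holds no value per library, so tests without each replicate could not be run. No paired analysis was possible because no column belongs to any library. The count of 9 members with a peak was also 9 with a window of 1000 bp, at any distance, among peaks of at least 200 bp, among the widest 50% and, an alternative chosen after seeing the data, with any interval over a RefSeq start. It was 6 among the widest 10% (without Uggt1, Edem3 and Os9) and 10 with a peak of any gene within 1000 bp of the gene. For that last, looser rule no share of all protein-coding genes is given. The median width of 1043 bp did not move. The count of 11 partners was 6 among the widest 10% and 10 to 13 otherwise. In the 150 bases nearest to the start, the ERSE was in 0 members, since both matches lie farther upstream, CCACG in 4 and CCAAT in 3. On the strand of the gene alone, the ERSE was in 1 member, GCCACGT in 1 and CCACG in 4. Of 31 recomputed values, 7 of the counts given here moved by over 1.5 times and 24 did not. The fall from 9 to 6 members, by 1.5 times, is among the 24. The narrowest of the 9 TSS peaks is 427 bp wide, and the farthest is centred 442 bp from the start. The settings by distance, by 200 bp and by the widest 50% (from 373 bp) could therefore not change the member count or the median width.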

Other observations

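The strings found under the members' peaks can be followed over all promoters of protein-coding genes, members left out. The start lay under an interval in 10 of 28 promoters with the ERSE (35.7%) and in 11.5% of those without. For ERSE-II this was 7 of 11 (63.6%), for TGACGTG 158 of 460 (34.3%) and for GCCACGT 218 of 616 (35.4%), against 10.8% to 11.5% of promoters without the motif in question. For CCAAT, which has no CG, it was 12.2% with and 11.1% without. Among genes with both a covered start and an assigned peak, the median widest peak was 1409.5 bp with the ERSE (8 genes) and 486 bp without. It was 602.5 bp with GCCACGT (192 genes) and 475 bp without. Promoters under an interval are richer in CG, as given above, and its part in these shares was not tested.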
